A study of Mus musculus with 10 samples.

Results

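The genes described here are 42 cytokines, chemokines, their receptors, NF-kB subunits and inhibitors, prostaglandin enzymes and acute phase genes. They were measured by RNA sequencing in preadipocytes, which can become fat cells, taken from inguinal subcutaneous fat (iSAT) of male WT C57 BL6 mice. The vehicle DMSO was given in 5 libraries, and in the other 5 BPS (bisphenol S, an analogue of bisphenol A) at 2.5 µM in DMSO. No label gave an exposure time or said that replicates were separate animals or cultures, so p-values measure only the spread between these libraries. By its title, the study concerns the promotion of fat cell formation by bisphenols and a part for reactive oxygen species in it.

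Members were listed by name, with earlier results of these data known, and had to reach 10 counts in at least 5 libraries. Of the 42 genes, 39 did so, out of 14672 such genes among the 32903 in the table. The 3 below this level were Ccl20 and Cxcl2, chemokines for lymphocytes and for neutrophils, with at most 2 counts per library, and Lcn2, an iron-binding acute phase protein, with 0 to 7. Just inside the level stood Cxcl1, another neutrophil chemokine, with 7 to 14 counts per library and 10 or more in 6 libraries. Il6 reached 10 counts in 8 libraries, and Ccl5 in 9. Cxcl1 did not pass the filter on low counts used for the test, so 38 members were tested.

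Chemokines are small secreted proteins that draw leukocytes, and stromal cells of fat are among their sources. NF-kB is a family of paired transcription factors held in the cytoplasm by inhibitors such as IκBα, the product of Nfkbia. Signals such as TNF and interleukin-1 remove the inhibitor, and the freed subunits switch on chemokine and cytokine genes together with Nfkbia and Tnfaip3, which end the signal. Cytokines of the interleukin-6 family signal through the shared receptor chain gp130, encoded by Il6st, and through JAK kinases and STAT3.

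The cells carried the markers of their label. All 10 preadipocyte and fibroblast markers were measured, with a summed level of 24122 to 27018 CPM over the 10 libraries. CPM are counts per 1000000 counts of a library, on TMM-scaled library sizes. Col1a1 alone averaged 21865 CPM. Under BPS 2 of these 10 markers rose, beside 3.06% of all genes. They were Cd34, from 45.2 to 54.8 CPM, and Thy1, from 848 to 968 CPM. The others were not called, among them Pdgfra at 904 CPM with DMSO and 863 CPM with BPS (edgeR adjusted p = 0.0777). Adipocyte markers summed to at most 0.355 CPM, and Lep was listed at 0. Macrophage markers summed to 13.4 to 21.2 CPM with DMSO and 14.3 to 24.2 CPM with BPS. Of the 10, 7 reached 10 counts in at least 5 libraries, such as Lyz2 (240 to 467 counts) and Cd68 (88 to 143). Of these 7, 0 were called, beside 4.88% of all genes, so a count of 0 among 7 says little. Csf1r was listed at 0. Lymphocyte markers stayed at or below 1.58 CPM with Cd3e and Cd3g at 0, and mast cell markers at or below 0.793 CPM with Fcer1a at 0. Endothelial markers summed to 17.6 to 23 CPM with DMSO and 17 to 22.9 CPM with BPS. Mural markers summed to 58.1 to 63.9 CPM with DMSO and 64.5 to 72.9 CPM with BPS. Of the 6, 1 rose, Cspg4, beside 3.06% of all genes. Mesothelial markers summed to 9.06 to 11 CPM with DMSO and 11 to 12.9 CPM with BPS. Most of this sum was Krt19, which rose from 9.34 to 11.2 CPM in the means and was called (edgeR adjusted p = 0.0367). Wt1, the other one tested, went from 0.849 to 0.569 CPM and was not called (edgeR adjusted p = 0.155). Msln and Upk3b were at 0. The part of mural or mesothelial cells in the results below was not tested. Total estimated counts were 37920689 to 42717227 per library.

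Of the 38 members tested, 6 were called, which here means a p below 0.05 in edgeR's quasi-likelihood test after adjustment by Benjamini and Hochberg over all genes. The 4 that rose under BPS were Ptgs2, Ccl11, Lif and Cx3cl1, beside 3.06% of all genes that rose. The 2 that fell were Tnfrsf1a and Cxcl5, beside 1.82% of all genes. Together they are 15.8% of the members, beside 4.88% of the 14597 genes tested. The members were chosen with results known, so this share is a description. The median log2 fold change of the 38 members was -0.007, and that of all genes was 0.000. The median size of the change regardless of direction was 0.114 in members and 0.056 in all genes, on the log2 scale. In 8 of 38 members, 21.1%, the BPS and DMSO values did not overlap, beside 6.9% of all genes. In 4 of the 8 BPS was higher, beside 4.19% of all genes, and in 4, namely Tnfrsf1a, Cxcl5, Ccl5 and Tnfrsf1b, it was lower, beside 2.71%. In bulk RNA, fewer cells of a type and less RNA per cell cannot be told apart.

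**Figure D1:**
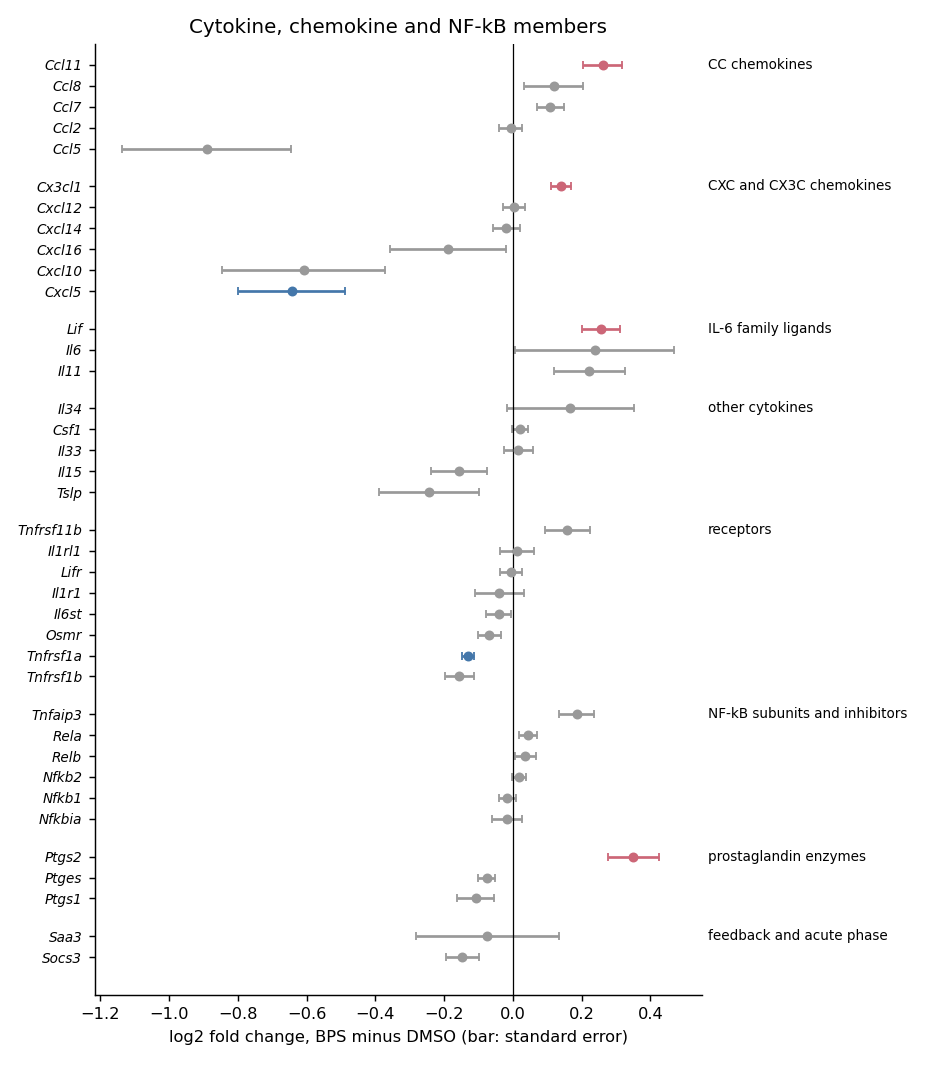
Log2 fold change (BPS minus DMSO, x axis) of the 38 tested members, grouped by role; points are edgeR estimates, bars are standard errors, red marks members called higher, blue called lower and grey not called. The 4 red points lie between 0.14 and 0.35, and the NF-kB subunits lie close to 0.

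The first 250 bases upstream of the RefSeq gene start are printed for 4 members, since the pattern of changed and unchanged genes can be set beside the letters there. Sequences and coordinates are from RefSeq, build GRCm38.p6, which held an entry for 30 of the 42 members. The letters searched on both strands were the NF-kB consensus (in the form with A or T as the sixth base), the AP-1 motif TGANTCA (bound by Fos and Jun proteins) and the CRE motif TGACGTCA (bound by CREB), and capitals mark the matches. Ptgs2 (chr1:150099781-150100030, plus strand) and Lif (chr11:4257318-4257567, plus strand) are shown as members that rose. Cxcl10 (chr5:92348890-92349139, minus strand) and Nfkbia (chr12:55492648-55492897, minus strand) are shown as members that hold the NF-kB consensus.
Ptgs2: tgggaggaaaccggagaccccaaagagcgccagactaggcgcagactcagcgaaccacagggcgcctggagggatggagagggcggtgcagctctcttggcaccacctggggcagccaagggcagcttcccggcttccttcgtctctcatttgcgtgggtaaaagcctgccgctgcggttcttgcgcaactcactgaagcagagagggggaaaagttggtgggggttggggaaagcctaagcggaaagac
Lif: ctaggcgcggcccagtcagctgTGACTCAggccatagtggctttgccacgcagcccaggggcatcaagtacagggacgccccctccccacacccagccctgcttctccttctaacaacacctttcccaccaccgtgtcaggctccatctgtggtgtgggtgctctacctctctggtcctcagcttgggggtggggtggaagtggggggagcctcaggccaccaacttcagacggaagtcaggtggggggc
Cxcl10: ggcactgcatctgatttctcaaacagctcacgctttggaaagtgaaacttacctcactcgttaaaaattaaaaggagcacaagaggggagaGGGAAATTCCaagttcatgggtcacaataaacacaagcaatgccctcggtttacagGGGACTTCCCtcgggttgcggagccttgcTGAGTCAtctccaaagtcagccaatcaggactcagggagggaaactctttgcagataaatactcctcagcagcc
Nfkbia: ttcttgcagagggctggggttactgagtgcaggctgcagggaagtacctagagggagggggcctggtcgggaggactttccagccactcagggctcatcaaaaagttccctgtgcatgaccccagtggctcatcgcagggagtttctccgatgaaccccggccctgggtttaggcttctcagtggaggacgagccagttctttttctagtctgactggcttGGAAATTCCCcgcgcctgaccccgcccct

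The NF-kB consensus was found in 12 of the 38 windows of members, while 3.9% of the 32851 windows in the whole table held it. These windows belonged to 10 of the 30 members, some of which have more than 1 window. These 10 were Ccl20, Csf1, Cxcl1, Cxcl2, Cxcl10, Il1r1, Il6, Nfkb2, Nfkbia and Tnfaip3. Of them 7 were tested and 0 were called by edgeR, beside 4.88% of all genes, so a count of 0 among 7 says little. Cxcl10 held matches that begin 159 and 103 bases before the gene start, and Nfkbia held 1 that begins 29 bases before it. Of the 6 called members, 4 had an entry (Ptgs2, Lif, Cx3cl1 and Tnfrsf1a), and 0 of these windows held the consensus in this form. With any base allowed as the sixth, a form added after the windows were seen, 7.25% of all windows matched. So did at least 1 window of 11 members, Lif being the added one and the 1 called member among them. The AP-1 motif stood in 6 of the 38 windows of members and in 6.75% of all windows. The 6 belonged to 6 members, Lif among them, 228 bases before the start. The CRE motif stood in 0 member windows and in 1.55% of all windows. A match is a description of the letters, and a missing match says only that these letters are not in this window.

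Among CC chemokines, Ccl11 rose, beside 3.06% of all genes, and the other 4 tested genes were not called. Ccl11 encodes eotaxin-1, which attracts eosinophils. Its DMSO libraries, in the order of their numbers, held 27.9, 27.4, 28.9, 27.9 and 25.3 CPM. The BPS libraries held 37.6, 30.8, 32.8, 33.2 and 30.3 CPM. Every BPS library was above every DMSO library, and BPS replicate 1 was the highest. The means were 27.5 ± 1.35 and 32.9 ± 2.9 CPM (± SD, 5 libraries per group), which is 0.26 on the log2 scale (SE 0.06, edgeR adjusted p = 0.0233). The call was lost, at adjusted p of 0.0518 to 0.0553 by edgeR, when DMSO replicate 2, DMSO replicate 5, BPS replicate 3 or BPS replicate 4 was left out, and with exact version matching (0.0523).

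Ccl2 and Ccl7, which attract monocytes, were the most abundant CC chemokines per transcript length. Ccl7 held 47.1, 46.0, 44.8, 50.8 and 47.4 CPM with DMSO and 54.2, 49.6, 48.8, 50.1 and 51.7 CPM with BPS. Its groups overlapped through DMSO replicate 4, and its log2 fold change of 0.11 (SE 0.04) was not called (edgeR adjusted p = 0.132). Ccl2 stood at 38.6 ± 1.52 CPM with DMSO and 38.4 ± 1.58 CPM with BPS (± SD, 5 libraries per group), and the difference was smaller than the spread between replicates. Ccl8, also a monocyte attractant, stood at 4.89 ± 0.477 and 5.3 ± 0.465 CPM, with overlapping groups.

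Ccl5 encodes RANTES, an attractant of T cells and monocytes. Its counts were 19, 20, 22, 28 and 22 in DMSO and 14, 13, 5, 11 and 15 in BPS. All BPS values were lower, and the log2 fold change of -0.89 (SE 0.24) was not called (edgeR adjusted p = 0.0614, 0.057 to 0.129 over the alternatives). At 5 to 28 counts per library the depth limits this gene.

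Of the 6 CXC and CX3C chemokines tested, Cx3cl1 rose and Cxcl5 fell, beside 3.06% of all genes that rose and 1.82% that fell. Cx3cl1 encodes fractalkine, which is made as a membrane protein and shed, and whose receptor sits on monocytes and macrophages. Its values were 71.1, 69.5, 67.6, 69.7 and 70.2 CPM in DMSO. In BPS they were 79.1, 77.4, 76.4, 78.9 and 71.5 CPM. The groups did not overlap, and BPS replicate 5 lay close to the DMSO libraries. The means were 69.6 ± 1.3 and 76.7 ± 3.08 CPM (± SD, 5 libraries per group), which is 0.14 on the log2 scale (SE 0.03, edgeR adjusted p = 0.0163). The call held in all 19 gene-level alternatives run (scaling, filters, DESeq2, limma-voom, the replicate block, exact version matching and leaving out each library).

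Cxcl5 encodes a neutrophil attractant. It held 1.96, 1.92, 2.28, 2.32 and 1.51 CPM with DMSO and 0.953, 1.12, 1.44, 1.47 and 1.44 CPM with BPS, on 38 to 90 counts per library. All BPS values were below all DMSO values, and DMSO replicate 5 was close to the BPS range. The log2 fold change was -0.64 (SE 0.16, adjusted p = 0.0382 by edgeR). This call was near the threshold and was lost in 12 of 19 alternatives, with adjusted p of 0.0509 to 0.0901 by edgeR, including each fit without 1 library other than that without DMSO replicate 5.

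Cxcl10, an attractant of activated T cells that interferons induce, varied within the DMSO group. Its DMSO values were 1.82, 2.05, 3.3, 3.92 and 4.13 CPM, and its BPS values were 2.23, 1.38, 2.17, 2.37 and 1.83 CPM. DMSO replicates 1 and 2 lay inside the BPS range and the other 3 above it. The log2 fold change of -0.61 (SE 0.24) was not called (edgeR adjusted p = 0.184). The coefficient of variation was 34.9% in DMSO and 19.9% in BPS, on 48 to 149 counts per library. Cxcl16, on 85 to 174 counts, had 16% and 25.5%, and Il34, on 51 to 105 counts, had 21% and 23.3%. Il11, on 77 to 116 counts, had 9.74% and 11.6%, and Tslp, on 38 to 68 counts, had 15.5% and 17.3%. Csf1 had 2.79% and 3.09%, but on 77679 to 91336 counts. Low counts add spread, and the cause of the spread in Cxcl10 was not tested.

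Cxcl12, which keeps and guides leukocytes and stem cells, was not called. It held 359, 361, 384, 389 and 366 CPM with DMSO and 378, 345, 378, 375 and 387 CPM with BPS, with overlapping groups and a log2 fold change of 0.0033 (SE 0.03, edgeR adjusted p = 0.975). Cxcl14 stood at 228 ± 11.3 and 225 ± 10.8 CPM (± SD, 5 libraries per group), and Cxcl16, a membrane-bound chemokine, at 3.72 ± 0.594 and 3.26 ± 0.833 CPM. Neither was called, and their groups overlapped.

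**Figure D2:**
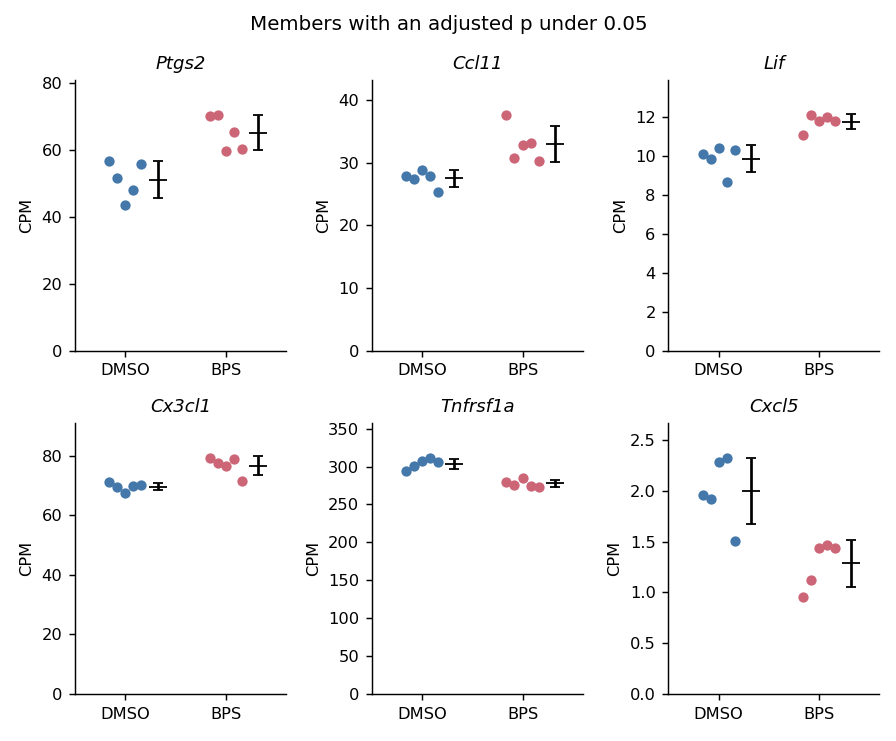
CPM (y axes, from 0) of the 6 called members in each of 5 DMSO (blue) and 5 BPS (red) libraries; black marks are means with SD. The groups do not overlap in any of the 6 panels, from Ptgs2 (51.1 to 65.2 CPM in the means) to Cxcl5 (2 to 1.28 CPM).

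The 3 ligands of the interleukin-6 family all had positive log2 fold changes, and 1 of them was called, beside 4.88% of all genes. Lif encodes leukemia inhibitory factor. Its DMSO libraries held 10.1, 9.82, 10.4, 8.66 and 10.3 CPM, and its BPS libraries held 11.1, 12.1, 11.8, 12.0 and 11.8 CPM. Each BPS value was above each DMSO value. The means were 9.86 ± 0.705 and 11.8 ± 0.377 CPM (± SD, 5 libraries per group), which is 0.26 on the log2 scale (SE 0.05, edgeR adjusted p = 0.0203). The call was lost without BPS replicate 2 (adjusted p = 0.0512) or BPS replicate 4 (0.0525), with the replicate block (0.0692) and with exact version matching (0.312, log2 fold change 0.17), all by edgeR.

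Il11, a cytokine linked to fibroblast activation, stood at 2.33 ± 0.227 and 2.71 ± 0.316 CPM (± SD, 5 libraries per group), with a log2 fold change of 0.22 (SE 0.10, edgeR adjusted p = 0.274). Il6 was barely read, with 8 to 16 counts per library and 0.301 ± 0.0467 and 0.359 ± 0.0968 CPM. Its difference was not detectable at this depth (log2 fold change 0.24, SE 0.23, edgeR adjusted p = 0.687). The 2 RefSeq transcripts of Lif that held most of its counts code for 203 and 158 residues and took 52.9% and 35.6%. Their shares varied widely among libraries, from 35.7% to 83.8% in DMSO for the longer product, whereas the CPM of the whole gene had a coefficient of variation of 7.15% in DMSO.

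Of the other cytokines, 5 of 5 were tested and 0 were called by edgeR, beside 4.88% of all genes. Csf1, the growth factor of macrophages, had the highest level per length of the 31 members with a known length for at least 80% of their counts. Its values were 2276, 2219, 2183, 2144 and 2291 CPM with DMSO and 2290, 2323, 2217, 2288 and 2150 CPM with BPS. The groups overlapped and the log2 fold change was 0.02 (SE 0.02, adjusted p = 0.732 by edgeR). Its receptor gene Csf1r was listed at 0 in all 10 libraries, although other macrophage markers such as Lyz2 and Cd68 were read. Il34, the other ligand of that receptor, stood at 1.86 ± 0.391 and 2.08 ± 0.486 CPM (± SD, 5 libraries per group).

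Il33, an alarmin that activates innate lymphoid cells, stood at 76.1 ± 4.75 and 77 ± 2.74 CPM (± SD, 5 libraries per group). Il15, a survival factor for natural killer and T cells, stood at 5.52 ± 0.486 and 4.95 ± 0.44 CPM. Tslp, a cytokine that acts on dendritic cells, had 1.66, 1.41, 1.27, 1.55 and 1.9 CPM with DMSO and 1.66, 1.09, 1.14, 1.27 and 1.38 CPM with BPS. Its log2 fold change of -0.24 (SE 0.15) was the largest in size among these 5 genes and was not called (edgeR adjusted p = 0.41). All 5 had overlapping groups.

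All 8 receptors were tested, and 1 fell, beside 1.82% of all genes. Tnfrsf1a encodes TNF receptor 1, the main entry of TNF into the NF-kB pathway. Its DMSO libraries held 294, 301, 308, 311 and 306 CPM. Its BPS libraries held 280, 276, 285, 275 and 273 CPM. No BPS library reached the lowest DMSO library. The means were 304 ± 6.51 and 278 ± 4.83 CPM (± SD, 5 libraries per group), which is -0.13 on the log2 scale (SE 0.02, edgeR adjusted p = 0.00238). The call held in all 19 gene-level alternatives, and Tnfrsf1a was the 1 member called when transcripts were tested without summing.

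Tnfrsf1b, the gene of TNF receptor 2, showed a log2 fold change of similar size. It held 43.4, 46.2, 48.3, 42.3 and 44.6 CPM with DMSO and 37.0, 41.8, 42.1, 41.0 and 39.9 CPM with BPS. The groups did not overlap, by a small margin, and the log2 fold change of -0.16 (SE 0.04) was not called (edgeR adjusted p = 0.0615). It passed with library size alone (0.0357 by edgeR), in the DESeq2 Wald test (0.0233) and with the replicate block (0.0489 by edgeR), and the adjusted p ran from 0.0233 to 0.135 over the 19 alternatives. Tnfrsf11b, which encodes the decoy receptor osteoprotegerin, held 10.2, 8.31, 8.82, 9.27 and 8.8 CPM with DMSO and 9.93, 10.3, 9.99, 11.2 and 9.22 CPM with BPS. Its log2 fold change of 0.16 (SE 0.07) was not called (edgeR adjusted p = 0.219).

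The receptor chains of the interleukin-6 family were not called. Il6st had 640, 643, 694, 667 and 640 CPM with DMSO and 582, 644, 642, 637 and 683 CPM with BPS. These ranges overlapped, with a log2 fold change of -0.042 (SE 0.04, edgeR adjusted p = 0.615). Osmr, the oncostatin M receptor, stood at 208 ± 6.53 and 199 ± 9.62 CPM (± SD, 5 libraries per group), and Lifr, the receptor of Lif, at 30.1 ± 0.931 and 29.9 ± 0.933 CPM. Il1r1, the receptor of interleukin-1, stood at 151 ± 16.1 and 147 ± 10.5 CPM.

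Il1rl1 encodes the receptor of Il33, known as ST2, which is made in a membrane form and in a shorter soluble form that binds the ligand without signalling. The gene stood at 254 ± 15.3 and 256 ± 18.4 CPM (± SD, 5 libraries per group, adjusted p = 0.937 by edgeR). Most of its counts, 82.6%, fell on a transcript of 1216 bases that codes for 337 residues, with 212 ± 11.2 CPM with DMSO and 209 ± 16.9 CPM with BPS. The transcript of 5302 bases, which codes for 567 residues, took 13.1%, with 32.3 ± 3.85 and 34.5 ± 3.18 CPM. Another transcript, of 2661 bases and again 337 residues, held 8.41 ± 3.24 and 11.7 ± 3.75 CPM. Lengths are those of matched GENCODE M21 transcripts, and the split depends on how the counting program divided shared reads.

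The division of Cxcl12 varied less between libraries. Its transcript for the 89-residue form held 83.6 ± 0.434% of the gene's counts in DMSO and 84.5 ± 0.36% in BPS (± SD, 5 libraries per group). The form of 93 residues held 11.3 ± 0.296% and 10.9 ± 0.357%. The form of 119 residues held 4.94% to 5.46% in DMSO libraries and 4.54% to 4.83% in BPS libraries, without overlap. At the gene level 6.9% of all genes did not overlap, and no such share was worked out for transcripts. The ranges of the forms of 89 and 93 residues overlapped. The difference in share was not tested, and this split too depends on how the counting program divided shared reads. Csf1 had 94.3% of its counts on a transcript of 4176 bases that codes for 552 residues, and the transcript for the 257-residue form held 52.6 ± 5.88 and 53.2 ± 6.7 CPM.

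**Figure D3:**
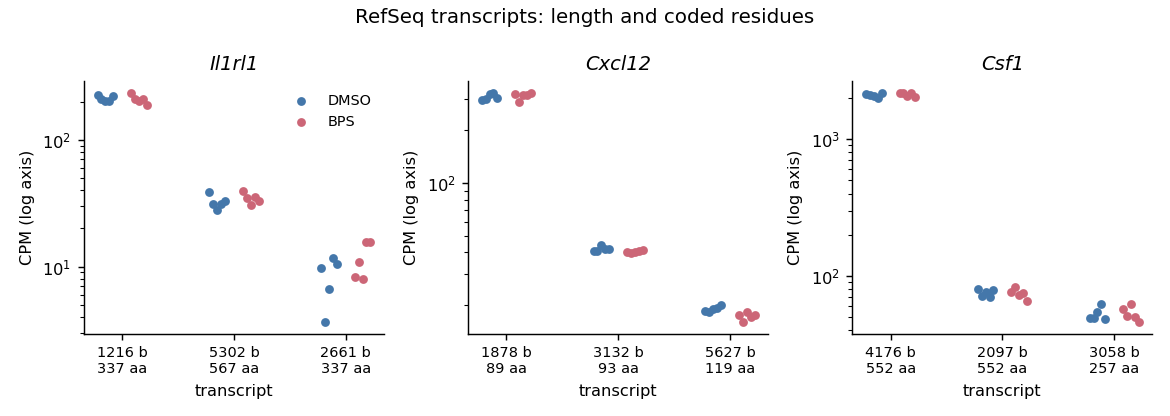
CPM (log y axes) of the main RefSeq transcripts of Il1rl1, Cxcl12 and Csf1 in 5 DMSO (blue) and 5 BPS (red) libraries, labelled by length in bases (b) and coded residues (aa). In Il1rl1 the transcript of 1216 bases lies above that of 5302 bases in each library, and the groups lie at similar heights.

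The NF-kB subunits and inhibitors had the smallest median change in size of the 8 role groups, 0.026 on the log2 scale. Of them 6 of 6 were tested and 0 were called by edgeR, with 1 at an unadjusted p under 0.05, a level that 18.8% of all genes reached. Nfkb1, which encodes the p105 precursor of p50, held 76.7, 75.9, 77.0, 80.5 and 76.5 CPM with DMSO and 78.3, 77.9, 72.9, 77.8 and 75.6 CPM with BPS, with overlapping groups and a log2 fold change of -0.016 (SE 0.02, edgeR adjusted p = 0.8). Nfkb2, the gene of p100 and p52, stood at 70.2 ± 1.17 and 71.1 ± 1.63 CPM (± SD, 5 libraries per group). Rela, the main activating subunit, stood at 57.7 ± 1.46 and 59.5 ± 1.75 CPM, and Relb, its counterpart in the noncanonical branch, at 18.7 ± 0.264 and 19.2 ± 0.523 CPM.

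Neither inhibitor was called. Nfkbia had 20.9 ± 1.16 CPM with DMSO and 20.6 ± 0.799 CPM with BPS (± SD, 5 libraries per group), with a log2 fold change of -0.017 (SE 0.04, edgeR adjusted p = 0.889). Tnfaip3 encodes A20, a ubiquitin-editing enzyme that ends NF-kB signalling. It held 12.4, 11.4, 11.3, 11.3 and 12.8 CPM with DMSO and 14.2, 13.2, 12.6, 14 and 13.1 CPM with BPS. Only BPS replicate 3 lay inside the DMSO range, and the log2 fold change of 0.18 (SE 0.05) was not called (edgeR adjusted p = 0.064). It passed without DMSO replicate 5 (0.0469 by edgeR), and the adjusted p ran from 0.0469 to 0.902 over the 19 alternatives, the highest with exact version matching.

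**Figure D4:**
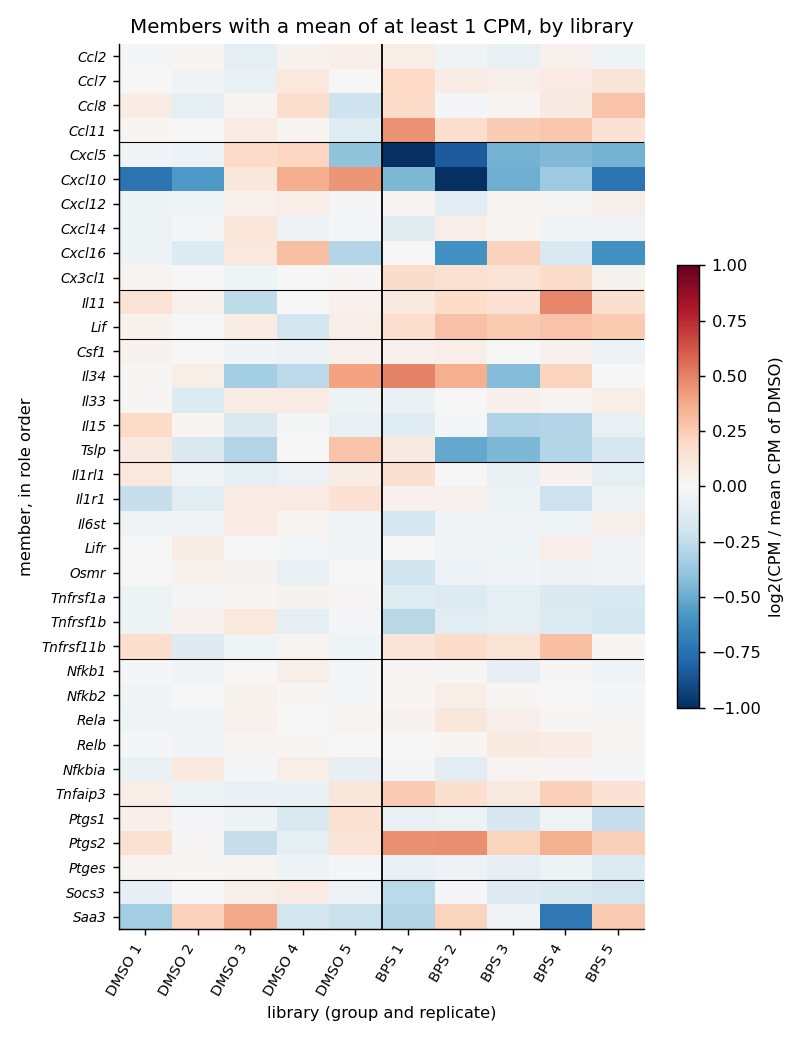
Log2 ratio of each library's CPM to the DMSO mean (colour, limited to -1 and 1; the lowest value is -1.14) for 36 tested members with a mean of at least 1 CPM; columns are libraries, rows are members, lines separate role groups. The rows of Nfkb1, Nfkb2, Rela and Relb are nearly white in all columns, and the BPS columns of Ptgs2, Ccl11 and Lif are red.

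Of the 3 prostaglandin enzymes tested, 1 rose, Ptgs2, beside 3.06% of all genes, and the others were not called. Ptgs2 encodes cyclooxygenase-2, the inducible enzyme that starts prostaglandin synthesis. Its values were 56.8, 51.6, 43.5, 47.9 and 55.9 CPM with DMSO and 70.2, 70.4, 59.6, 65.4 and 60.2 CPM with BPS. All BPS libraries lay above all DMSO libraries. The means were 51.1 ± 5.57 and 65.2 ± 5.2 CPM (± SD, 5 libraries per group), which is 0.35 on the log2 scale (SE 0.07, edgeR adjusted p = 0.0202). This was the largest rise among the 38 members. The call was lost without DMSO replicate 4 (edgeR adjusted p = 0.0529) or BPS replicate 2 (0.0524 by edgeR).

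Ptgs1 encodes the constitutive cyclooxygenase-1. It held 74.5, 71.0, 69.6, 64.7 and 79.9 CPM with DMSO and 68.5, 69.1, 64.4, 70.3 and 61.2 CPM with BPS. The groups overlapped, and the log2 fold change of -0.11 (SE 0.05) was not called (edgeR adjusted p = 0.312). Ptges, which makes prostaglandin E from the cyclooxygenase product, stood at 47.5 ± 1.1 and 45.1 ± 1.07 CPM (± SD, 5 libraries per group, adjusted p = 0.107 by edgeR).

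Socs3, the inhibitor that STAT3 induces against gp130 signalling, had 50.1, 52.9, 55.3, 56.2 and 51.1 CPM in DMSO. In BPS it had 44.1, 52.8, 48.5, 48.1 and 46.6 CPM, and BPS replicate 2 lay within the DMSO range. The log2 fold change of -0.15 (SE 0.05) was not called (edgeR adjusted p = 0.0998), and it passed without BPS replicate 2 (edgeR adjusted p = 0.0375, range 0.0375 to 0.196 over the 19 alternatives). Saa3, an acute phase protein that stromal and fat cells make in inflammation, stood at 1.11 ± 0.251 and 1.06 ± 0.273 CPM (± SD, 5 libraries per group) on 24 to 57 counts per library, and its difference was smaller than the spread.

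Levels were compared between genes only per transcript length, for the 31 tested members with a known length for at least 80% of their counts. Left out were Il15, Il1r1, Nfkb1, Rela, Relb, Tnfaip3 and Cxcl14, which had a known length for 0.349% of its counts. In DMSO, Csf1 was highest at 555 ± 15.3 CPM per kilobase (SD, n = 5). Il1rl1 followed at 184 ± 10.2 and Cxcl12 at 182 ± 7.04 CPM per kilobase, which do not differ beyond their spread. Tnfrsf1a had 141 ± 3.02, Il6st 75.7 ± 2.75, Ccl7 58.9 ± 2.8 and Ccl2 47.5 ± 1.87 CPM per kilobase. At the low end stood Il6 at 0.273 ± 0.0337, Il34 at 0.829 ± 0.368 and Ccl5 at 1.1 ± 0.175 CPM per kilobase, and Il34 and Ccl5 do not differ beyond their spread.

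A further 138 genes of the same pathways were listed by name, and 107 of them were tested. They too were chosen with earlier results of these data known, so their counts are a description. Of these, 0 rose and 10 fell, which is 9.35% beside 4.88% of all genes in either direction and 1.82% of all genes for falls. Their median log2 fold change was -0.038. In 11 of the 107 the groups did not overlap, beside 6.9% of all genes.

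The 10 genes comprised 5 of 32 tested in the receptor and JAK-STAT list, 4 of 43 in the NF-kB list and 1 of 4 adhesion genes. Of all genes, 1.82% fell. Vcam1, an adhesion molecule for leukocytes, held 204, 207, 212, 208 and 208 CPM with DMSO and 173, 175, 177, 177 and 182 CPM with BPS. The groups were well apart, with a log2 fold change of -0.23 (SE 0.02, edgeR adjusted p = 2.37e-05). Icam1, its counterpart for integrins of leukocytes, stood at 38.2 ± 0.995 and 38.4 ± 1.55 CPM (± SD, 5 libraries per group, adjusted p = 0.915 by edgeR).

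Among receptors and kinases, Il4ra, the shared receptor chain for interleukins 4 and 13, fell from 238 ± 7.15 to 212 ± 5.15 CPM (± SD, 5 libraries per group, log2 fold change -0.17, SE 0.02, edgeR adjusted p = 0.00229). Il13ra1, its partner chain, fell from 64.6 ± 1.36 to 58.7 ± 1.88 CPM, and Il17ra, the receptor of interleukin-17, from 47.2 ± 2.03 to 41.8 ± 1.37 CPM (adjusted p 0.0113 and 0.012 by edgeR). The kinase genes Jak1 and Jak2 fell from 248 ± 6.5 to 217 ± 14.2 CPM and from 140 ± 2.8 to 132 ± 1.07 CPM (adjusted p 0.016 and 0.0139 by edgeR). Stat3, which these kinases activate, stood at 265 ± 3.82 and 263 ± 3.75 CPM.

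In the NF-kB list, 4 of 43 tested genes fell, which is 9.3% beside 1.82% of all genes. Bcl3 and Nfkbiz encode nuclear IκB proteins that shape NF-kB target choice. Bcl3 fell from 25.5 ± 1.17 to 21.8 ± 0.405 CPM (± SD, 5 libraries per group), which is -0.23 on the log2 scale (SE 0.03, edgeR adjusted p = 0.00337). Nfkbiz fell from 36 ± 0.882 to 33 ± 0.885 CPM (log2 fold change -0.12, SE 0.03, edgeR adjusted p = 0.0214). Ier3, an immediate early gene that protects from cell death, fell from 20.6 ± 0.978 to 16.3 ± 1.23 CPM (log2 fold change -0.34, SE 0.05, edgeR adjusted p = 0.00406). Birc2, which encodes the ubiquitin ligase cIAP1, fell from 32.1 ± 1.3 to 29.3 ± 0.648 CPM (log2 fold change -0.13, SE 0.03, edgeR adjusted p = 0.0351).

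**Figure D5:**
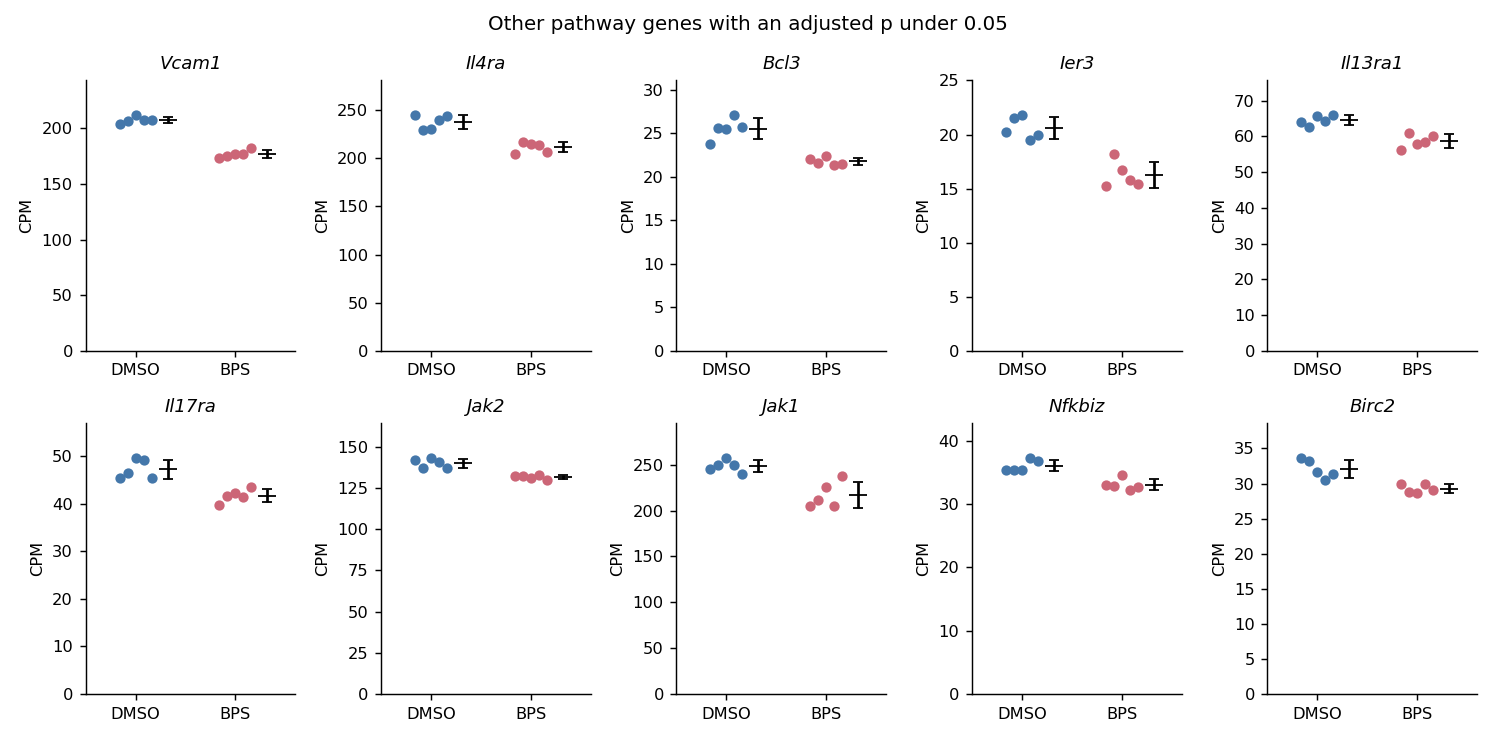
CPM (y axes, from 0) of the 10 called genes among 107 further pathway genes, in 5 DMSO (blue) and 5 BPS (red) libraries; black marks are means with SD. All 10 are lower in BPS and their groups do not overlap.

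In the list of further cytokines and chemokines, 15 of 34 genes were tested and 0 were called by edgeR, with 4 at an unadjusted p under 0.05, beside 18.8% of all genes. The genes of TNF and interleukin-1 had few counts. Tnf had 0 to 4 counts per library, Il1b had 0 to 3 and Il1a had 1 to 9, so differences in them were not detectable at this depth. Other listed cytokines were read at higher levels, among them Il18 with 62 to 116 counts and Il33 with 2633 to 3163. Of 13 tested genes of prostaglandin metabolism, 0 were called by edgeR, with 3 at an unadjusted p under 0.05, beside the same 18.8%.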

How the data were processed

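The authors deposited a table of kallisto estimated counts, with 107384 RefSeq transcripts in lines and libraries in columns. They were made with kallisto 0.42.4, per the submitters' processing notes; the index, genome build and strand setting are not given in the sources used here. Each column was assigned by the library code in the labels.

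Accessions were matched without version to the RefSeq gene table of GRCm38.p6, which placed 86722 transcripts in 32903 genes and 93.1% of counts. Estimated counts were summed per gene and rounded. Genes passing filterByExpr (14597) were TMM-scaled and tested with edgeR 4.0.16's quasi-likelihood test (R 4.3.3) with the group as the sole term and p-values adjusted by Benjamini-Hochberg across these genes. The standard error is the log2 fold change over the square root of F. The code was tested on simulated data. DESeq2 1.42.0 and limma 3.58.1 served as alternatives. Depth was 37920689 to 42717227 counts per library.

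The members and lists were chosen with earlier results of these data known. All called members, and in each role group the member with the highest CPM and the one with the largest change at a mean of at least 1 CPM, are given library by library. Ccl5, at a lower mean, and a few others were added after their values were seen. DMSO libraries carry lower numbers in the labels than BPS libraries, so a batch in that order cannot be told apart from the treatment. Promoter windows hold the 250 bases before the RefSeq gene start.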

Additional observations from a re-analysis of the deposited data

Results flagged for a closer look

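Dixon's criterion at the 95% level was applied to the 5 libraries of each group for the 39 members above the count level. Of 78 groups, 6 had a library that stood apart, and chance flags about 1 in 20 groups, 3.9 of these 78. Among high values, Cxcl14 in DMSO replicate 3 stood at 248 CPM against 220 to 227 CPM in the other DMSO libraries. Nfkb1 in DMSO replicate 4 stood at 80.5 CPM against 75.9 to 77 CPM. Il11 in BPS replicate 4 stood at 3.27 CPM against 2.48 to 2.64 CPM. Among low values, Cxcl12 in BPS replicate 2 stood at 345 CPM against 375 to 387 CPM. BPS replicate 1 was low for 2 members: Lif stood at 11.1 CPM against 11.8 to 12.1 CPM, and Osmr at 182 CPM against 200 to 205 CPM. Lif was still called by edgeR without that library.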

How the results depend on the processing

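Of 38 tested members, 29 kept their direction in every gene-level alternative that gave them a value (19, or 18 for Ccl5, Cxcl16 and Il6), the 6 called ones among them. The 6 calls became 3 with exact version matching, which tested 36 members on fewer counts, and 1 when transcripts were tested without summing, which divides the counts. Without 1 library they numbered 3 to 6, with the lowest value without BPS replicate 4. The 10 falls among the further genes became 2 without summing and 8 to 10 without 1 library, where 1 further gene rose without BPS replicate 5. With upper-quartile scaling and in the DESeq2 Wald test, 1 further gene rose beside 10 falls. The replicate number was only a name here: deviations of same-numbered libraries correlated at 0.1, 0.00384, -0.067, 0.072 and -0.078. With the replicate block, 5 members (4 of them shared) and 7 further genes were called. The other scaling, filter and test alternatives gave 5 to 7 members.

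The sign turned in 9 members whose log2 fold changes were at most 0.075 in size. With library size alone it was -0.011 for Cxcl12 and -0.004 for Il1rl1, and with exact version matching -0.001 for Cxcl12. Without 1 library it ran from -0.029 to 0.009 for Ccl2, -0.010 to 0.029 for Cxcl12, -0.041 to 0.012 for Cxcl14, -0.016 to 0.037 for Il33, -0.030 to 0.038 for Il1rl1, -0.025 to 0.013 for Lifr, -0.025 to 0.001 for Nfkb1, -0.036 to 0.008 for Nfkbia and -0.171 to 0.046 for Saa3. The cause was not tested. Counts of 5 to 28 per library limit Ccl5, Cxcl1 and Il6, and 38 to 90 counts limit Cxcl5.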
